A study of Homo sapiens with 8 samples.

Results

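This account covers 45 genes of the NF-kB pathway and its cytokine and chemokine products, out of 23248 gene symbols kept from RNA sequencing of human fibroblasts treated with an siRNA against SUPT4H1. The genes were taken by name from a list: 16 regulators (NF-kB subunits, IkB inhibitors, IKK kinase subunits and ubiquitin regulators), 20 secreted products (10 chemokines, 10 cytokines and growth factors), 3 receptors and 6 adhesion, enzyme and other target genes. All 45 had a row, IL8 under its current symbol CXCL8. Polyadenylated RNA came from 2 fibroblast lines, called line 1 and line 2, grown in DMEM with serum and antibiotics and transfected with RNAiMAX lipid carrying either a non-targeting control siRNA or the SUPT4H1 siRNA. Each line had 2 replicate treatments of each siRNA, so that 4 control samples stood against 4 SUPT4H1 siRNA samples; both groups went through transfection, and no untransfected sample and no cytokine-stimulated sample was analysed here. The labels do not call the replicates separate cultures, so p-values reflect only how far these 8 samples scatter, possibly for technical reasons, and 2 lines do not stand for fibroblasts in general.

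NF-kB is a family of dimeric transcription factors. In resting cells IkB proteins hold the dimers in the cytoplasm; signals from the IL-1 and TNF receptors activate the IKK kinase, which marks IkB for destruction and frees the dimers to enter the nucleus. Fibroblasts answer such signals by secreting IL6 and chemokines that draw in leukocytes, and several NF-kB targets, NFKBIA and TNFAIP3 among them, encode inhibitors that close the response. The siRNA target, SPT4, pairs with SPT5 (gene SUPT5H) in DSIF, which acts on pausing and elongation by RNA polymerase II.

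Levels are the deposited FPKM (fragments per kilobase of transcript, scaled to the mapped fragments), so levels of different genes can be compared on this scale. Testing was limited to genes that averaged 1 FPKM or more over the 8 samples, which left 11442. The test was limma on log2(FPKM + 1) with the line as a block, 2-sided, and a gene rose or fell where its adjusted p was at most 0.05 (Benjamini-Hochberg over all 11442). Log2 changes are on this scale, which understates the change of genes near 1 FPKM. In bulk RNA, fewer cells making a transcript and less transcript per cell cannot be told apart.

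The FPKM values summed to 288293 to 305680 per sample, the number of fragments is not given, and the 10 most abundant rows held 8.5 to 8.59% of that sum under control siRNA and 9.58 to 10.96% under SUPT4H1 siRNA. Rows that failed the deposited status enter this share: the files list COL1A1 at 0 for the 4 controls and at 3382 to 3996 FPKM after SUPT4H1 siRNA, and list COL1A2 at 0 for the same controls plus SUPT4H1 line 1 replicate 1. Over symbols with status OK in all samples, the 10 most abundant held 8.52 to 8.62% under control siRNA, and after SUPT4H1 siRNA line 1 had 9.22 and 9.28% while line 2 had 8.37 and 8.42%. SUPT4H1 was at 25.61, 25.59, 26.18 and 28.31 FPKM under control siRNA and at 1.37, 1.43, 1.69 and 1.74 FPKM after SUPT4H1 siRNA (log2 change -3.42, SE 0.03, adjusted p = 3.97e-11). An exact permutation test over the 36 arrangements within lines gave p = 0.0556, the smallest it can give. SUPT5H did not pass over both lines (log2 difference 0.08, adjusted p = 0.0614), and passed in 2 of 15 alternatives with the line as block. In line 2 alone it rose by 0.15 (adjusted p = 0.00409), where 27% of all genes rose. In line 1 it did not pass (0.02, adjusted p = 0.693), nor did the difference between the lines (adjusted p = 0.103). The 11 of 13 fibroblast markers with a usable status in all samples, DCN, LUM, PDGFRA and THY1 among them, were all at a mean of 1 FPKM or more. Of these 11, 6 fell after SUPT4H1 siRNA (COL6A3 by 0.47, COL5A1 by 0.44, FAP by 0.31, PDGFRA by 0.27, COL3A1 by 0.25 and PDGFRB by 0.12 on the log2 scale), S100A4 rose (0.24) and 4 did not pass, where 26.8% of all genes rose and 15.2% fell. Endothelial markers summed to at most 0.284 FPKM. Of 8 leukocyte markers, CD3E was at 0 in all samples, PTPRC was at most 0.21 and ITGAM at most 0.017 FPKM. The leukocyte list summed to 45.1 to 51.9 FPKM in the control and 59.4 to 78.2 FPKM in the SUPT4H1 siRNA samples, nearly all of it CD68, a lysosomal glycoprotein, which rose (0.48, adjusted p = 0.00276). CD14, the other leukocyte marker above 1 FPKM, did not pass (0.14, adjusted p = 0.08). The 7 epithelial markers summed to 0.706 to 5.65 FPKM under control and 1.15 to 10.2 FPKM under SUPT4H1 siRNA, most of it KRT19 in line 2, which went from 4.34 and 5.13 to 9.37 and 8.75 FPKM there and rose over both lines (0.48, adjusted p = 0.0132). EPCAM, CDH1, KRT5 and KRT14 were under 0.1 FPKM in every sample. The part of these fibroblast, leukocyte and epithelial markers in the results below was not tested.

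Promoter sequences show how the members differ in what lies just before their starts. RefSeq promoters on GRCh38.p14 (250 bases before to 50 after a start) matched 38 of the 45 members with 58 starts. The 10-base NF-kB consensus, searched on both strands, was present in 37.9% of these promoters, against 11.3% of all 35116 promoters and 13.2% of those of tested genes. The letters TATAAA, also on both strands, were in 17.2%, against 11.5% of all promoters and 5.95% of those of tested genes. TGACTCA, the AP-1 site, was in 12.1% against 4.95% and 3.43%, searched in the same way. The members were picked for their known link to NF-kB, so these shares describe the list.

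Windows of the 120 bases just before the start are shown for members whose responses are set side by side below. Each is printed along the gene's own strand, with the NF-kB consensus, TATAAA and TGACTCA on either strand in capitals. The windows lie at chr7:22727080-22727199 (plus strand, IL6), chr1:100719622-100719741 (plus, VCAM1), chr14:35404750-35404869 (minus, NFKBIA), chr5:55994964-55995083 (minus, IL6ST), chr19:55370464-55370583 (minus, IL11) and chr10:44385098-44385217 (minus, CXCL12).
IL6: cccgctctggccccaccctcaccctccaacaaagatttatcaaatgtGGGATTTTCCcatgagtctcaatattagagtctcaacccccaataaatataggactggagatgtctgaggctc
VCAM1: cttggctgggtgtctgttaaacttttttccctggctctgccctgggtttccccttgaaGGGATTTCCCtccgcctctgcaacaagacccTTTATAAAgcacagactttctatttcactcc
NFKBIA: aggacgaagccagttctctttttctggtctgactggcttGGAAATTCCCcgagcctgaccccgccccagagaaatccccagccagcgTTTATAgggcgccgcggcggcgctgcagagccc
IL6ST: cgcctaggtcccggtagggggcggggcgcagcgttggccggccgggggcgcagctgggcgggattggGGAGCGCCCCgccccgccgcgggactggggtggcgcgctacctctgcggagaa
IL11: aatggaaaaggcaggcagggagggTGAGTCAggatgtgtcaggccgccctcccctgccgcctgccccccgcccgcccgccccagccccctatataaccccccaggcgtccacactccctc
CXCL12: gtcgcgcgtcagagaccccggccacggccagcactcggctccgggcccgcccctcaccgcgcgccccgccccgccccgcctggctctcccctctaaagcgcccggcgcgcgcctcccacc
The consensus starts 73 bases before the IL6 start, 62 before the VCAM1 start, 81 before the NFKBIA start and 53 before the IL6ST start. The IL11 window holds a TGACTCA on its other strand and no NF-kB consensus, and the CXCL12 window holds none of these motifs. As the values below show, IL6 fell, IL6ST rose and NFKBIA did not pass the test, all with the consensus in this window. NFKB1, NFKB2, NFKBIB, TNFAIP3, TNIP1 and IL32, not printed, did not pass over both lines and also hold the consensus in the 120 bases before a start. VCAM1, below the level tested, also holds it and fell with no filter on FPKM. CXCL12 and IL11 fell without it. NFKBIZ fell with the consensus in its promoters, outside the 120 bases before its starts. IL1R1 and SOD2 fell, and CHUK rose, with no consensus in their promoters. NFKBIE and IKBKB, which rose, had no matched promoter. The part of the motif in these responses was not tested. A match of letters is no proof of a bound site.

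Most of the regulators and few of the secreted products were expressed. Of the 45 members, 25 reached a mean of 1 FPKM: 14 of the 16 regulators, 6 of the 20 secreted products, and IL1R1, IL6ST, PTGES, SOD2 and TNFAIP2. The highest level belonged to CXCL12, a chemokine that guides CXCR4-bearing cells, with a control mean of 1033 FPKM in line 1 and 152 FPKM in line 2. IL6ST, the signalling subunit shared by the receptors for IL6, IL11 and LIF, followed with 116 and 67.3 FPKM, and IL1R1, the receptor for IL-1, with 96.3 and 61.3 FPKM. CSF1, the growth factor of macrophages, and CCL2, a monocyte chemokine, stood at a mean of 44.6 and 25.5 FPKM in the control samples. The neutrophil chemokines CXCL1, CXCL2, CXCL3, CXCL5, CXCL6 and CXCL8 were all below 0.5 FPKM in every sample.

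**Figure D1:**
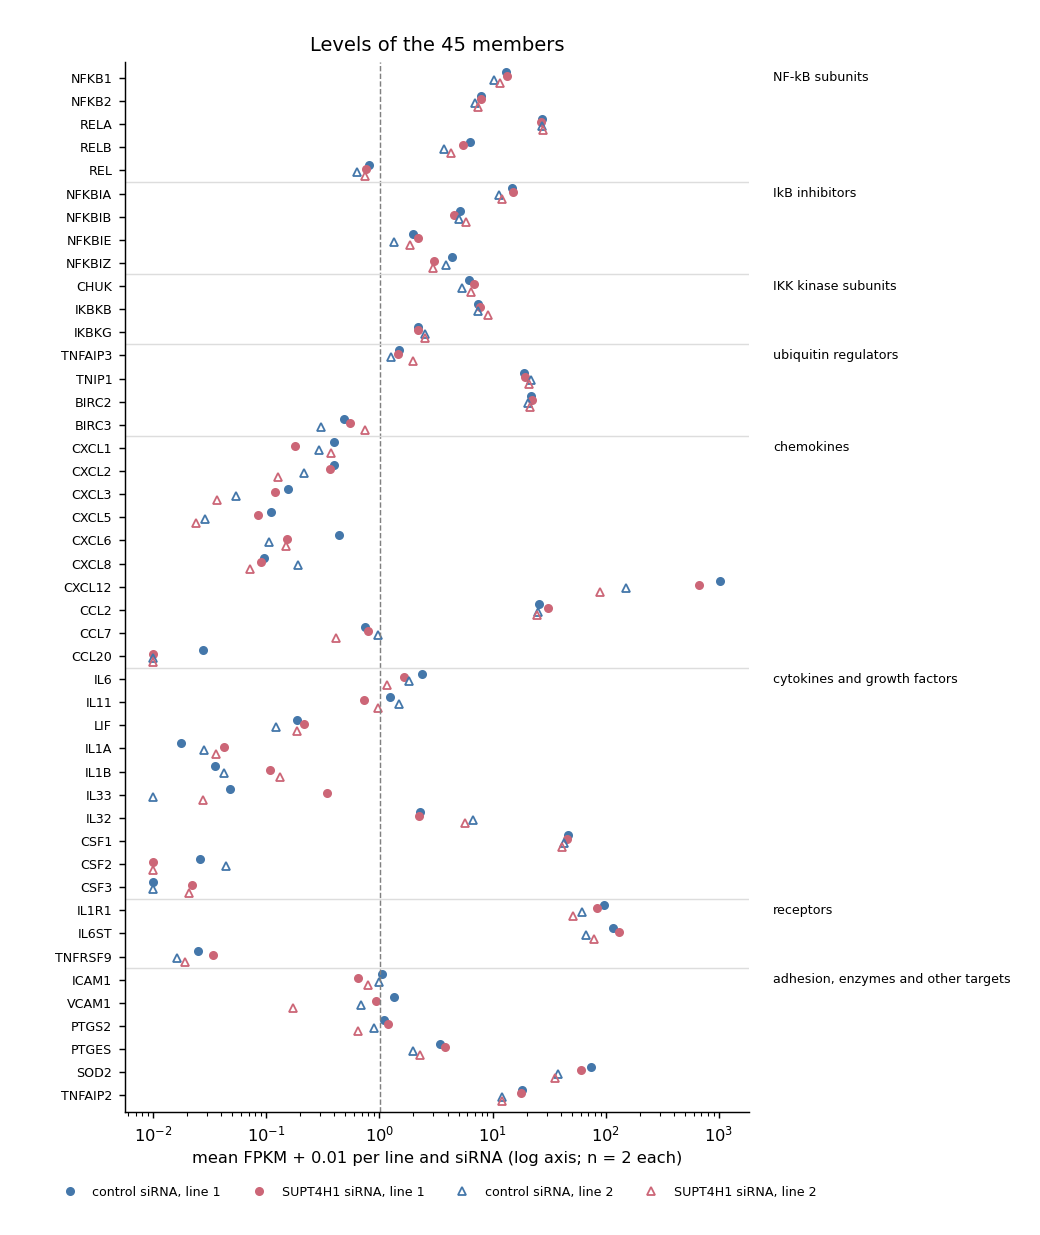
Mean FPKM + 0.01 of each of the 45 members (log axis) in each line and siRNA, 2 samples a point, grouped by role. The dashed line marks 1 FPKM; 25 members have an overall mean at or to the right of it, and 8 of the 10 chemokines lie to its left.

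After SUPT4H1 siRNA, 4 of the 25 tested members rose and 6 fell. NFKBIE, CHUK, IKBKB and IL6ST rose, and CXCL12, IL6, IL11, NFKBIZ, IL1R1 and SOD2 fell. Over all genes tested 26.8% rose and 15.2% fell, against 16 and 24% of the tested members. The median log2 change of the 25 was 0.002, against 0.031 over all genes. After scaling the samples by median ratios, 2319 genes rose and 2310 fell in place of 3072 and 1743, so that 50.1% of the calls were rises in place of 63.8%, and the median over all genes was 0.001. With the line left out of the model, so that 4 samples stand against 4, 3.56% of all genes rose and 1.78% fell. Of the 10 members only NFKBIZ then passed (adjusted p = 0.0236), and the others had adjusted p of 0.063 (IL11) to 0.82 (SOD2). In the control samples the lines differed in the level of most of the tested members, as given further on. IKBKB, IL6, IL11 and NFKBIZ did not pass in that comparison. The part of these level differences in the lost calls was not tested.

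**Figure D2:**
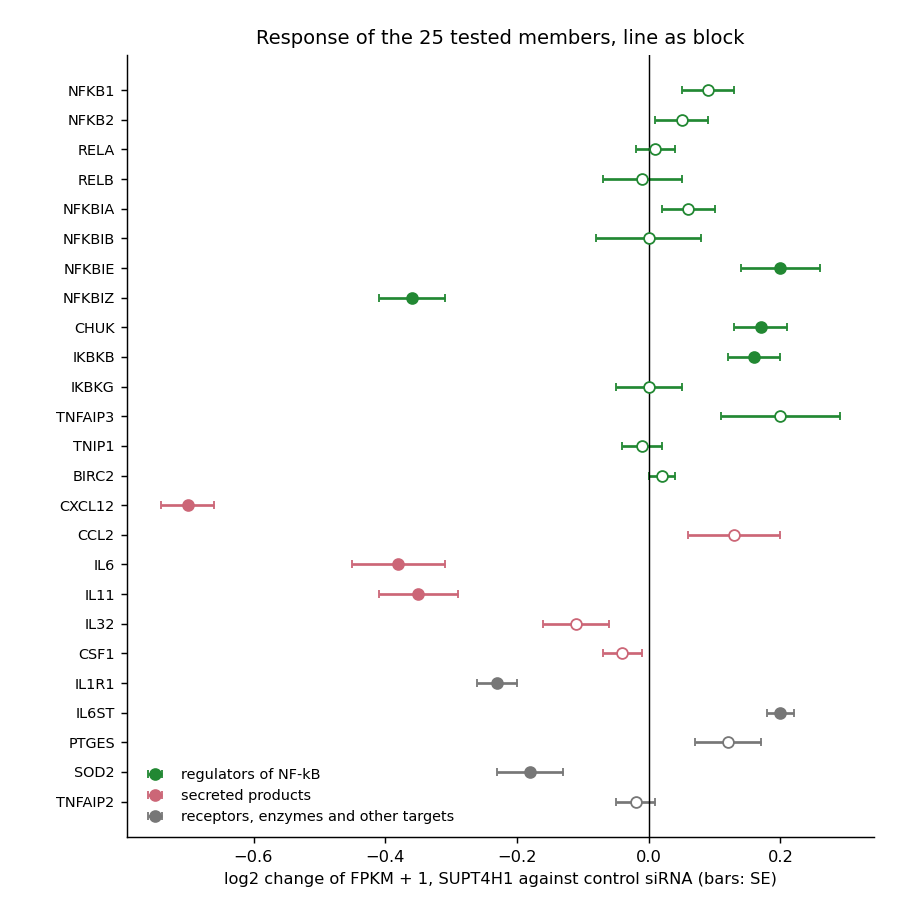
Log2 change of FPKM + 1 with its SE for the 25 tested members, SUPT4H1 against control siRNA over both lines with the line as block, 8 samples. Filled points passed the test; CXCL12 lies farthest to the left at -0.70, and the regulators other than NFKBIZ lie between -0.01 and 0.20.

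The NF-kB subunits did not pass over both lines. RELA, the transactivating subunit of the classical dimer, was at 26.75 and 27.67 FPKM under control and 26.73 and 26.70 FPKM under SUPT4H1 siRNA in line 1, and at 27.46 and 26.95 against 28.16 and 28.12 FPKM in line 2 (log2 difference 0.01, SE 0.03, adjusted p = 0.759). NFKB1, the precursor of its p50 partner, was at 13.16 and 13.13 against 13.38 and 13.21 FPKM in line 1 and at 10.33 in both control samples against 12.08 and 11.19 FPKM in line 2 (log2 difference 0.09, adjusted p = 0.0885). NFKB1 passed in line 2 alone (0.16, adjusted p = 0.00934; 0.0798 without SUPT4H1 line 2 replicate 1), while the difference between the lines did not pass (adjusted p = 0.147). NFKB2, which encodes p100, the precursor of p52, had a log2 difference of 0.05 (adjusted p = 0.307). REL stayed between 0.59 and 0.86 FPKM and was below the level tested.

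RELB, the partner of p52 in the noncanonical pathway, moved in opposite directions in the lines. In line 1 it went from 6.15 and 6.44 to 5.67 and 5.28 FPKM, a fall by 0.17 on the log2 scale (adjusted p = 0.0242). In line 2 it went from 3.83 and 3.62 to 4.19 and 4.37 FPKM, a rise of 0.16 (adjusted p = 0.0247). The 2 responses differed by 0.33 (SE 0.07, adjusted p = 0.0157). Each of these calls was lost in some settings: the difference had adjusted p up to 0.0643, without control line 1 replicate 2, SUPT4H1 line 1 replicate 2, control line 2 replicate 2 or SUPT4H1 line 2 replicate 2, and with no filter on FPKM.

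Among the IkB proteins, NFKBIZ fell and NFKBIE rose. NFKBIZ (hg19 chr3:101546834-101579869) encodes IkB-zeta, a nuclear member of the family that acts as a coactivator for genes such as IL6. It was at 4.58 and 4.19 against 3.09 and 2.93 FPKM in line 1, and at 3.62 and 4.10 against 2.78 and 3.15 FPKM in line 2. The SUPT4H1 siRNA samples lay below the control samples in each line, as they did for 16.6% of all genes tested. They stood at 68.7% of the control mean in line 1 and 76.9% in line 2 (log2 change -0.36, SE 0.05, adjusted p = 0.000683). NFKBIE, IkB-epsilon, a cytoplasmic inhibitor (chr6:44225903-44233525), went from 2.01 and 1.92 to 1.98 and 2.38 FPKM in line 1, where the groups overlapped, and from 1.34 and 1.34 to 1.69 and 2.06 FPKM in line 2 (log2 change 0.20, SE 0.06, adjusted p = 0.0336). The call of NFKBIE was kept in 5 of 14 alternatives with the line as block and lost in the rest (adjusted p up to 0.0895), among them those without any 1 sample other than control line 1 replicate 1 and SUPT4H1 line 1 replicate 1. NFKBIA, IkB-alpha, the main inhibitor and itself a target of NF-kB, was at 14.41 and 15.29 against 15.36 and 14.95 FPKM in line 1 and at 10.70 and 12.24 against 12.01 and 12.39 FPKM in line 2. The groups overlapped in both lines (log2 difference 0.06, adjusted p = 0.3). NFKBIB, IkB-beta, did not pass either (adjusted p = 0.994).

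Over both lines the catalytic subunits of the IKK complex rose by a small amount, and its scaffold did not pass. CHUK, the kinase IKK-alpha (chr10:101948124-101989344), went from 6.23 and 6.05 to 7.02 and 6.67 FPKM in line 1 and from 5.12 and 5.65 to 6.50 and 6.30 FPKM in line 2 (log2 change 0.17, SE 0.04, adjusted p = 0.00521). IKBKB, IKK-beta, went from 7.34 and 7.42 to 7.67 and 7.76 FPKM in line 1 and from 7.33 and 7.47 to 9.27 and 8.83 FPKM in line 2 (0.16, SE 0.04, adjusted p = 0.0159). In line 1 alone neither passed (CHUK 0.14, adjusted p = 0.0646, and IKBKB 0.06, adjusted p = 0.288). In line 2 alone both did (CHUK 0.21, adjusted p = 0.00652, and IKBKB 0.26, adjusted p = 0.00045). The difference between the lines did not pass for CHUK (adjusted p = 0.551), and that of IKBKB is given further on. For both genes the SUPT4H1 siRNA samples lay above the control samples in each line, as they did for 28.8% of all genes tested. In each line 16.6% lay below. IKBKG, the scaffold NEMO, had a mean of 2.36 FPKM in both groups (adjusted p = 0.982).

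The ubiquitin regulators did not pass over both lines. TNFAIP3, the ubiquitin-editing inhibitor A20, was at 1.62 and 1.32 against 1.49 and 1.43 FPKM in line 1, and at 1.10 and 1.42 against 2.02 and 1.94 FPKM in line 2. Over both lines the log2 difference was 0.20 (SE 0.09, adjusted p = 0.099; 0.0264 without control line 1 replicate 1). In line 2 alone TNFAIP3 rose by 0.40 (adjusted p = 0.00336), and the difference between the lines did not pass (adjusted p = 0.0579). TNIP1, which binds A20, and BIRC2, a ubiquitin ligase of TNF receptor complexes, had log2 differences of -0.01 and 0.02 (adjusted p = 0.716 and 0.5). BIRC3, the inducible relative of BIRC2, was below the level tested, at 0.43 and 0.51 against 0.57 and 0.51 FPKM in line 1 and 0.27 and 0.31 against 0.76 and 0.72 FPKM in line 2. With no filter on FPKM, BIRC3 passed in line 2 (0.43, adjusted p = 0.000948, where 15.9% of 18902 genes rose) and its difference between the lines also passed (0.37, adjusted p = 0.0239, where 2.17% were called in this direction).

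CXCL12 had the largest fall on the log2 scale among the tested members. It lies at chr10:44865601-44880545 and was at 1026.02 and 1040.88 FPKM under control and 648.18 and 689.98 FPKM under SUPT4H1 siRNA in line 1. In line 2 it stood at 151.43 and 152.52 against 90.82 and 87.38 FPKM. The SUPT4H1 siRNA samples kept 64.7% of the control mean in line 1 and 58.6% in line 2, far outside the spread of the replicates (log2 change -0.70, SE 0.04, adjusted p = 2.99e-06). The responses of the lines, -0.63 and -0.76, did not differ past the threshold (adjusted p = 0.119).

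CCL2 did not pass over both lines. It was at 25.98 and 25.28 against 32.05 and 30.23 FPKM in line 1 and at 22.68 and 28.03 against 25.64 and 24.08 FPKM in line 2 (log2 difference 0.13, SE 0.07, adjusted p = 0.206; 0.00575 without control line 2 replicate 2). In line 1 alone it rose by 0.27 (adjusted p = 0.0254), a call lost without any 1 of the 4 samples of that line and with no filter on FPKM (adjusted p up to 0.143), and the difference between the lines did not pass (adjusted p = 0.136). The other 8 chemokines were below the level tested, with 0.99 FPKM as their highest value, in CCL7. CXCL6 was at 0.48 and 0.37 against 0.16 and 0.12 FPKM in line 1 and at 0.087 and 0.10 against 0.10 and 0.18 FPKM in line 2. CCL7, a monocyte chemokine next to CCL2, was at 0.63 and 0.84 against 0.91 and 0.64 FPKM in line 1 and at 0.99 and 0.95 against 0.48 and 0.31 FPKM in line 2. With no filter, CXCL6 fell in line 1 (-0.32, adjusted p = 0.00835, where 6.33% of genes fell) and CCL7 in line 2 (-0.49, adjusted p = 0.0178, where 8.96% fell). The response of CXCL6 also differed between the lines (0.38, adjusted p = 0.0421, where 2.17% of genes were called in this direction), and its value in line 2 was 0.06 (adjusted p = 0.46). At these levels the deposited intervals reach 100% of the value for CXCL6 and 70.7% for CCL7. CXCL1, CXCL2, CXCL3, CXCL5 and CXCL8 reached 0.49, 0.44, 0.17, 0.14 and 0.24 FPKM at most, and CCL20, a lymphocyte chemokine, was above 0 in 1 sample (0.035 FPKM).

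IL6 and IL11 fell in both lines. IL6 (chr7:22766766-22771621), the main inflammatory cytokine of fibroblasts, was at 2.22 and 2.51 against 1.33 and 1.96 FPKM in line 1 and at 1.84 and 1.82 against 1.07 and 1.24 FPKM in line 2. This is 69.4 and 63% of the control mean (log2 change -0.38, SE 0.07, adjusted p = 0.00327). The SUPT4H1 siRNA samples lay below the control samples in each line, as for 16.6% of all genes tested. IL11 (chr19:55875750-55881831), a relative of IL6 that fibroblasts make after TGF-beta, was at 1.27 and 1.19 against 0.79 and 0.67 FPKM in line 1 and at 1.59 and 1.35 against 1.07 and 0.88 FPKM in line 2. That is 59.1 and 66.1% of the control mean (log2 change -0.35, SE 0.06, adjusted p = 0.00111). With a pseudocount of 0.1 in place of 1 the changes were -0.57 for IL6 and -0.62 for IL11, more than 1.5 times as large. The lower members of the same family were also measured: LIF was at 0.22 FPKM or less in all samples.

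CSF1 and IL32 were expressed and did not pass over both lines. CSF1 was at 46.53 and 46.86 against 46.07 and 44.84 FPKM in line 1 and at 41.43 and 43.70 against 40.22 and 42.50 FPKM in line 2 (log2 difference -0.04, adjusted p = 0.281; -0.07 and 0.0405 after scaling by median ratios). IL32, a cytokine with no known rodent counterpart, was at 2.16 and 2.38 against 2.37 and 2.13 FPKM in line 1 and at 6.76 and 6.72 against 5.95 and 5.52 FPKM in line 2 (-0.11, adjusted p = 0.127). It passed over both lines without control line 1 replicate 1 or SUPT4H1 line 1 replicate 1, with adjusted p down to 0.0431. IL1A, IL1B, IL33, CSF2 and CSF3 were at 0.36 FPKM or less. IL33, an alarmin of the IL-1 family, was at 0.057 and 0.017 against 0.30 and 0.36 FPKM in line 1 and at 0 in both control samples against 0.023 and 0.012 FPKM in line 2. With no filter IL33 rose in line 1 (0.36, adjusted p = 0.00105, where 9.9% of genes rose), and its response differed between the lines (-0.34, adjusted p = 0.0138, where 1.71% were called in this direction). IL1B was at 0.034, 0.016, 0.019 and 0.045 FPKM in the control and 0.14, 0.061, 0.073 and 0.17 FPKM in the SUPT4H1 siRNA samples, and did not pass (adjusted p = 0.051). For IL33 and IL1B the deposited intervals are wider than the value in some samples.

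**Figure D3:**
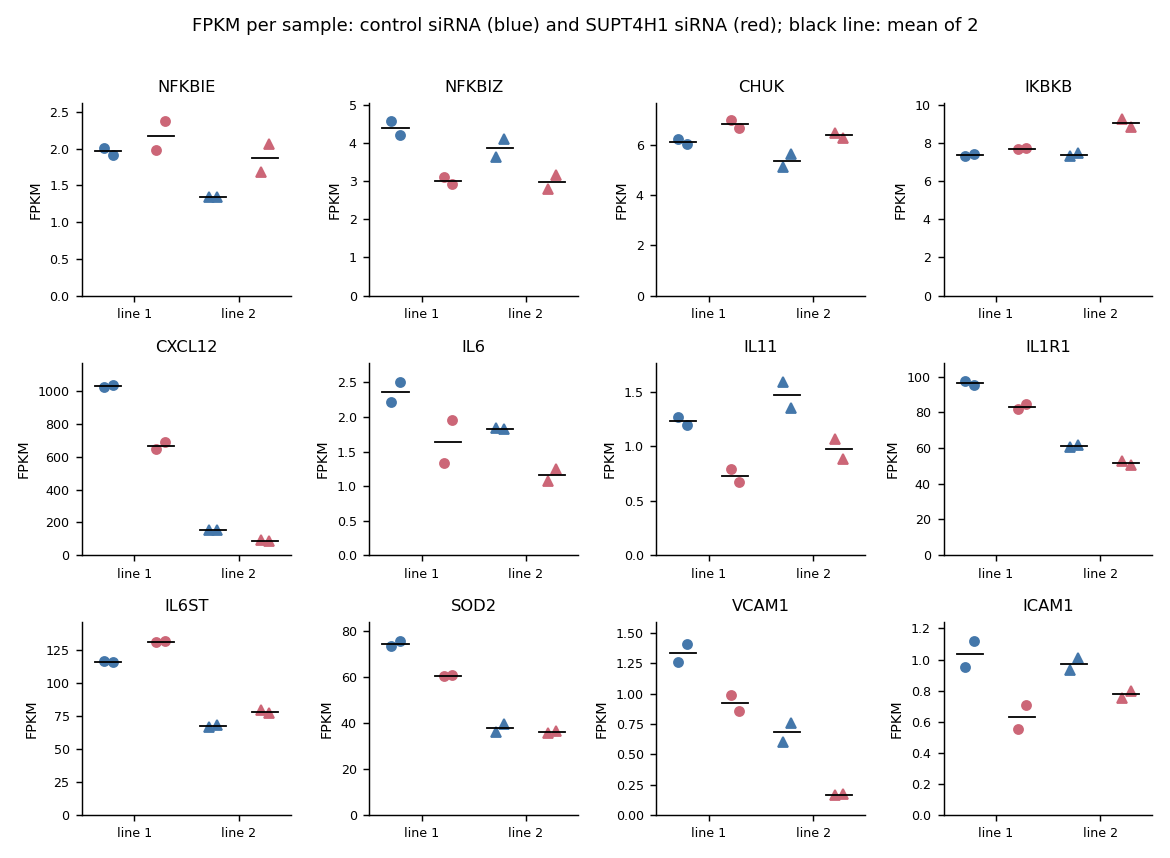
FPKM in each of the 8 samples (y axes from 0) for the 10 members that rose or fell, and for VCAM1 and ICAM1, whose means are below 1 FPKM. Circles are line 1 and triangles line 2. In all but NFKBIE and SOD2 the control and SUPT4H1 siRNA samples are apart in both lines. Of all genes tested, 28.8% lay higher and 16.6% lower in both lines. The 10 members passed a test on these same samples, so the gaps are no further evidence.

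The 2 expressed receptors moved in opposite directions. IL1R1 (chr2:102686836-102796334) was at 97.50 and 95.03 against 81.56 and 84.77 FPKM in line 1 and at 60.75 and 61.79 against 52.75 and 50.56 FPKM in line 2, or 86.4 and 84.3% of the control mean (log2 change -0.23, SE 0.03, adjusted p = 0.00019). IL6ST (chr5:55230925-55290821) was at 116.77 and 115.78 against 131.01 and 132.19 FPKM in line 1 and at 66.76 and 67.91 against 79.69 and 77.07 FPKM in line 2, or 113 and 116% (0.20, SE 0.02, adjusted p = 0.000228). Each passed in each line on its own and under every alternative with the line as block. TNFRSF9, a costimulatory receptor of T cells, was at 0.026 FPKM or less.

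The remaining targets were mixed. SOD2, the mitochondrial superoxide dismutase and a well known NF-kB target (chr6:160100149-160114353), fell over both lines (log2 change -0.18, SE 0.05, adjusted p = 0.0157). It went from 73.26 and 75.50 to 60.25 and 60.79 FPKM in line 1, and was at 35.90 and 39.64 against 35.38 and 36.44 FPKM in line 2, where the groups overlapped. The fall was -0.29 in line 1 (adjusted p = 0.000752) and the value in line 2 was -0.07 (adjusted p = 0.222). This difference between the lines, 0.22, passed (adjusted p = 0.0474) but was kept in 4 of 14 alternatives, with adjusted p up to 0.144. PTGES, a prostaglandin E synthase, and TNFAIP2 had log2 differences of 0.12 and -0.02 (adjusted p = 0.082 and 0.711); PTGES passed without SUPT4H1 line 2 replicate 1 (adjusted p = 0.0348). PTGS2, the inducible cyclooxygenase, was between 0.61 and 1.25 FPKM.

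The adhesion molecules VCAM1 and ICAM1, which hold leukocytes on vessel walls and stroma, were below the mean level tested. VCAM1 (chr1:101185196-101204601) was at 1.26 and 1.41 against 0.99 and 0.86 FPKM in line 1 and at 0.60 and 0.76 against 0.16 and 0.17 FPKM in line 2, which is 69 and 23.5% of the control mean. ICAM1 (chr19:10381517-10397291) was at 0.95 and 1.12 against 0.55 and 0.71 FPKM in line 1 and at 0.93 and 1.01 against 0.75 and 0.80 FPKM in line 2. In both genes the SUPT4H1 siRNA samples lay below the control samples in each line. So did 16.6% of the 11442 genes tested, which leave these 2 out. With no filter on FPKM both fell, VCAM1 by 0.41 (adjusted p = 0.00472) and ICAM1 by 0.24 (adjusted p = 0.0197) on the log2 scale, where 9.06% of the 18902 genes fell and 15.6% rose. VCAM1 then also fell in each line on its own (adjusted p = 0.0321 and 0.00244). ICAM1 fell in line 1 (-0.32, adjusted p = 0.0229) and did not pass in line 2 (-0.15, adjusted p = 0.153). In line 1 alone 6.33% of genes fell, and in line 2 alone 8.96%. No other member below the level tested passed over both lines with no filter.

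Regulators and secreted products can now be set side by side. Of the 14 regulators tested, 3 rose (21.4%, against 26.8% of all genes), 1 fell (7.14%, against 15.2%) and 10 did not pass, with a median log2 change of 0.037. Of the 6 secreted products tested, 0 rose, 3 fell and 3 did not pass, with a median of -0.227, against 0.031 over all genes. CCL2 alone of the 6 had a value above 0. The 50% of secreted products that fell are only 3 genes, against 15.2% of all genes. With no filter on FPKM the median of all 20 secreted products was -0.037, 14 of which have a mean below 1 FPKM, and with a minimum of 5 FPKM, which keeps CXCL12, CCL2 and CSF1 of them, it was -0.039. No test between the classes was made.

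Each line was also tested on its own. In line 1, 2 members rose and 7 fell, where 19% of all genes rose and 11.7% fell. In line 2, 7 rose and 6 fell, where 27% rose and 15.9% fell. The 5 members that fell in each line on their own were CXCL12, IL6, IL11, NFKBIZ and IL1R1, and IL6ST rose in each. The calls of IL6 in line 1 and in line 2, with 2 samples a group, were lost without some single samples (adjusted p up to 0.149 without control line 1 replicate 2 or SUPT4H1 line 1 replicate 1, and up to 0.0718 without replicate 1 of either siRNA in line 2), and with no filter on FPKM. In line 2, NFKBIZ lost its call without control replicate 2 or SUPT4H1 replicate 1 (up to 0.0505), IL11 without control replicate 1 or SUPT4H1 replicate 2 (up to 0.0629) and CHUK without control replicate 1 (0.0545). NFKBIE lost its call in line 2 without either control replicate or SUPT4H1 replicate 2, and with no filter (up to 0.0968). IL32 fell in line 2 (-0.20, adjusted p = 0.0178; up to 0.117 without either control replicate or SUPT4H1 replicate 2 of that line), and its difference between the lines did not pass (adjusted p = 0.182). The response differed between the lines for RELB, IKBKB (0.20, adjusted p = 0.0436) and SOD2, with the more positive response in line 2 each time; 5.39% of all genes were called in this direction and 4.49% in the other, where no tested member was. IKBKB rose in line 2 by 0.26 (adjusted p = 0.00045) and was at 0.06 in line 1 (adjusted p = 0.288), and the call of its difference was kept in 4 of 14 alternatives (adjusted p up to 0.139).

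**Figure D4:**
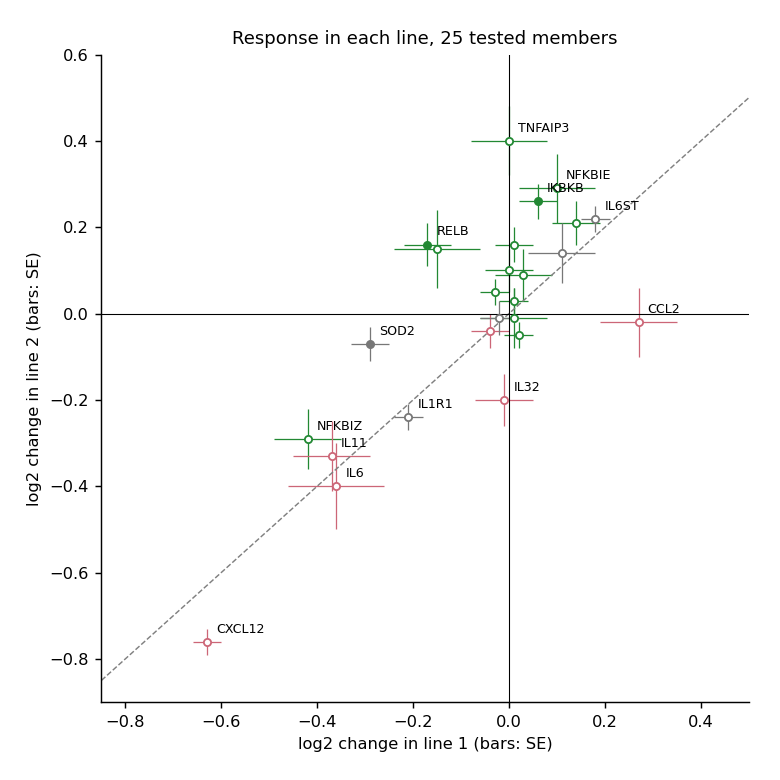
Log2 change in line 1 against that in line 2, each with its SE, for the 25 tested members (green regulators, red secreted products, grey others). On the dashed line both responses are equal; filled points (RELB, IKBKB and SOD2) differed between the lines, and CXCL12, IL6, IL11, NFKBIZ and IL1R1 lie below 0 in both.

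In the control samples most members were lower in line 2. Of the 25, 13 were lower and 2 higher, where 33.8% of all genes were lower and 24.2% higher. CXCL12 was lower by the largest amount of these (log2 difference -2.76, adjusted p = 1.5e-11), followed by SOD2 (-0.96, adjusted p = 4.79e-08), IL6ST (-0.78, adjusted p = 9.01e-09), IL1R1 (-0.64, adjusted p = 1.14e-07) and RELB (-0.63, adjusted p = 3.02e-06). IL32 was higher in line 2 (1.24, adjusted p = 5.91e-08), as was TNIP1 (0.19, adjusted p = 0.000504). RELA did not pass (adjusted p = 0.993). These are differences between 1 line and 1 other line.

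Gene span is given as a description. The tested members span a median of 14945 bases in hg19, from 1925 for CCL2 to 115974 for NFKB1, against 27312 over all genes tested. Across the 25 members Spearman's rho between span and log2 change was 0.13, and over all genes tested it was -0.05; genes share libraries and are no independent replicates. Among the members that fell, IL6 spans 4856 bases and IL1R1 109499.

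Other genes of the pathway came from 7 lists with 118 genes, of which 83 were tested. Among these 27 rose (32.5%), 13 fell (15.7%) and 43 did not pass, against 26.8% and 15.2% of all genes, with a median log2 change of 0.051 against 0.031. Of 29 receptors and adaptors upstream of IKK, 7 rose (24.1%) and 3 fell (10.3%), both shares under those of all genes. IRAK2, a kinase of the IL-1 and Toll-like receptor complex, rose from 0.896 ± 0.0821 to 1.37 ± 0.0675 FPKM (SD, n = 4; log2 change 0.32, adjusted p = 0.00075), with TLR3 and TRAF3 as the next largest rises (0.24 and 0.19). IL1RAP, the partner chain of IL1R1, fell (-0.37, adjusted p = 0.000373), from 7.46 and 7.94 to 5.57 and 6.12 FPKM in line 1 and from 5.61 and 6.57 to 4.43 and 4.32 FPKM in line 2. TRAF5 and TNFRSF1A, a TNF receptor, fell by 0.12 and 0.10 on the log2 scale; TRAF5 lost its call without either control replicate of line 1 or replicate 2 of any other group, with no filter, and with line and replicate number as block (adjusted p up to 0.096), and TNFRSF1A without SUPT4H1 line 1 replicate 1 or SUPT4H1 line 2 replicate 2 (up to 0.0524).

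Of 17 tested genes of the ubiquitin machinery and other IkB proteins, 9 rose (52.9%, against 26.8% of all genes) and 0 fell (against 15.2%). Most of these rises were small, and the median log2 change of the 17 was 0.092, against 0.031 over all genes. The largest rises were in IKBKE, an IKK-related kinase (0.32, adjusted p = 0.00431), CYLD, a deubiquitinase that restrains the pathway (0.18, adjusted p = 0.00951), and BTRC, which recognises marked IkB for ubiquitination (0.16, adjusted p = 0.0118). The other genes of this list that rose did so by 0.09 (RBCK1 and UBE2V1) to 0.13 (TNIP2). IKBKE rose by 0.15 in line 1 (adjusted p = 0.0499) and by 0.49 in line 2 (adjusted p = 6.37e-05). These responses differed (0.34, adjusted p = 0.0215), where 5.39% of all genes were called in this direction. Of 16 other NF-kB targets, 8 rose (50%) and 4 fell (25%). MMP3, the matrix protease stromelysin, rose from 2.00 and 2.05 to 5.22 and 5.09 FPKM in line 1 and from 8.58 and 8.34 to 15.38 and 15.70 FPKM in line 2 (0.91, SE 0.04, adjusted p = 2.29e-06). Its rise was 1.02 in line 1 and 0.81 in line 2, and the 2 responses differed (-0.22, adjusted p = 0.0348). TNFSF13B, the B cell factor BAFF, and TAP1, a peptide transporter of antigen presentation, rose by 0.48 and 0.34 on the log2 scale. TNFSF13B rose in line 1 (0.8, adjusted p = 1.6e-05) and did not pass in line 2 (0.17, adjusted p = 0.0556). These responses differed (-0.63, adjusted p = 0.00205), where 4.49% of all genes were called in this direction. IER3, an early response gene (-0.52, adjusted p = 0.000286), GADD45B (-0.25, adjusted p = 0.00147) and CFB, complement factor B (-0.23, adjusted p = 0.000974), fell.

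Receptors of the IL6 family differed among themselves. Of 5 cytokine and chemokine receptors tested, 1 rose (20%) and 2 fell (40%), against 26.8% and 15.2% of all genes. IL6R rose from 5.10 ± 0.10 to 6.72 ± 0.32 FPKM (SD, n = 4, log2 change 0.34, adjusted p = 3.83e-05). IL11RA, the receptor of IL11, and OSMR, that of oncostatin M, fell by 0.28 and 0.26 on the log2 scale (adjusted p = 0.00497 and 0.00109). Both fell in each line, by different amounts. IL11RA was at -0.13 in line 1 and -0.44 in line 2 (difference -0.31, adjusted p = 0.00969). OSMR was at -0.36 and -0.16 (difference 0.20, adjusted p = 0.0192, where 5.39% of all genes were called in this direction). LIFR and ACKR3, a scavenging receptor of CXCL12, did not pass over both lines (adjusted p = 0.775 and 0.897). ACKR3, singled out after its values were seen, rose in line 1 from 20.43 and 19.60 to 22.32 and 24.50 FPKM (0.21, adjusted p = 0.00488). In line 2 it fell from 19.85 and 19.57 to 16.67 and 16.26 FPKM (-0.25, adjusted p = 0.00149). These responses differed (-0.46, adjusted p = 0.00153), where 4.49% of all genes were called in this direction. In the other lists C3 and ZFP36L1 also rose in line 1 and fell in line 2. PLAU and CLCF1 did the reverse, and the difference between the lines passed for each of them. Of 7 other cytokines tested, 2 rose and 2 fell (28.6% each, against 26.8% and 15.2% of all genes). IL12A and IL16 rose (0.41 and 0.35, adjusted p = 0.00746 and 0.00575), and MIF and IL7 fell. IL12A rose in line 2 (0.64, adjusted p = 0.000191) and did not pass in line 1 (0.19, adjusted p = 0.117). IL16 rose in line 1 (0.53, adjusted p = 0.000323) and did not pass in line 2 (0.17, adjusted p = 0.0685). Both responses differed between the lines (0.46 and -0.36, adjusted p = 0.0363 and 0.0423). MIF was at 250.52 and 269.42 against 160.46 and 170.84 FPKM in line 1 and at 411.14 and 426.68 against 285.74 and 289.65 FPKM in line 2 (-0.59, SE 0.04, adjusted p = 8.36e-06). CXCL16, the 1 of 12 other chemokines that was tested, fell (-0.20, adjusted p = 0.0426). This call was kept in 6 of 14 alternatives with the line as block, and lost (adjusted p up to 0.12) without control line 1 replicate 1, either SUPT4H1 replicate of line 1 or replicate 2 of either siRNA in line 2, with a pseudocount of 0.1, with no filter, and with line and replicate number as block. Of the 8 factors that control the decay of cytokine mRNAs, 0 rose and 1 fell (12.5%), against 26.8% and 15.2% of all genes. ZFP36L2 fell (-0.34, adjusted p = 9.23e-06) and 7 did not pass over both lines, among them ZFP36, or tristetraprolin (0.01, adjusted p = 0.832). Without the line in the model, IRAK2, TAP1, IER3, IL6R and OSMR of these named genes still passed (adjusted p = 0.00645 for IL6R to 0.0313 for OSMR), and the others did not (0.122 for TRAF3 to 0.893 for CFB).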

How the data were processed

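RNA was sequenced in 8 samples: 2 fibroblast lines, 2 siRNAs and 2 replicate treatments of each. The authors deposited FPKM values with interval bounds and a status per gene, per the file headers, and positions on a build that the submitters' processing notes give as hg19. The sources used here do not give the aligner, quantifier, annotation or strand setting, so antisense overlaps cannot be separated, and the fragment number is unknown. For the tested members, the half-width of the deposited interval was 3.74 to 29.8% of the value. The interval is given for each sample, and the sources used here do not say which errors it covers.

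From these, 2020 small RNA symbols were left out and rows of 1 symbol were summed. A gene was tested at a mean FPKM of 1 or more with status OK in all samples (12 genes of this level were left out by status). limma 3.58.1 in R 4.3.3 was run on log2(FPKM + 1) with the line as block and a mean-variance trend, and on 4 group means (4 residual degrees of freedom) for each line and for differences between lines. The script was tested on simulated data. Samples of 1 line share their cells: across genes, deviations from the siRNA group means correlated between siRNAs of 1 line at 0.883 to 0.9, so the line pairs the groups. Figures used Python 3.11.15 and matplotlib 3.10.9. Members and gene lists were chosen with earlier results of these data known. All members are accounted for; of the other lists the 3 largest rises and falls past the threshold were named. The alternatives were no block, a block by line and replicate number, another pseudocount, other filters, scaling, no trend, single-row symbols and leaving out each sample.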

Additional observations from a re-analysis of the deposited data

Results flagged for a closer look

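The response to SUPT4H1 siRNA differed between the lines for 3 of the 25 tested members, by the test of the difference itself over all genes (limma). The log2 response in line 2 minus that in line 1 was 0.33 for RELB (adjusted p = 0.0157), 0.22 for SOD2 (adjusted p = 0.0474) and 0.20 for IKBKB (adjusted p = 0.0436). RELB fell in line 1 and rose in line 2, SOD2 fell in line 1, and IKBKB rose in line 2. Over all genes 5.39% were called in this direction.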

How the results depend on the processing

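With the line as block, 9 of the 10 members that rose or fell over both lines kept direction and call in every alternative in which they were tested; NFKBIE did not. Without the line in the model (no replicate block), 407 genes rose and 204 fell, 0 members rose and 1 fell, 0 regulators rose, 0 secreted products fell, and 4 other pathway genes rose and 2 fell. The replicate numbers share only a number (correlation within lines 0.103 and 0.052); with line and number as replicate block, 2590 genes rose and 1447 fell. The median log2 change of secreted products was -0.348 with a pseudocount of 0.1, -0.037 with no filter and -0.039 with a minimum of 5 FPKM.

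With no filter, 410 positive and 323 negative differences between the lines passed, with 1 member negative (IL33). BIRC3 and CXCL6, below the level tested in the main fit, were then positive, and RELB, IKBKB and SOD2 lost this call. With a minimum of 5 FPKM, which tests fewer genes, 3 members fell (0 regulators, 1 secreted product), 3 fell in line 1, 4 rose and 2 fell in line 2, and in control samples 2559 genes were lower and 1 member higher in line 2. With no mean-variance trend 1 member had a positive difference between the lines. Leaving out single samples gave 0 to 1 secreted products that rose, 1360 to 2207 genes and 1 to 3 members that rose in line 1, 331 to 521 positive and 301 to 442 negative differences between the lines, and 0 to 2 positive and 0 to 1 negative among members. The cause of these changes was not tested. RELA, RELB, BIRC2 and TNFAIP2, none of them called over both lines, changed sign in an alternative. The number of fragments is unknown, so precision near 0 FPKM rests on the deposited intervals.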
